A study of Mus musculus with 2 samples.

Results

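The Fc gamma receptors of mouse tumour-infiltrating cells are described here through 5 genes chosen by name out of 34290 genes listed: Fcgr1, Fcgr3, Fcgr4, Fcgr2b and Fcer1g. Each of the 5 symbols was found once. The rule is a list of names and holds no measured value, but it was drawn up with earlier results of these data known. Fc gamma receptors are surface proteins of leukocytes that bind the constant region of IgG antibodies, and so link an antibody-coated target to engulfment, killing or cytokine release. In the mouse, FcγRI (Fcgr1, high affinity), FcγRIII (Fcgr3) and FcγRIV (Fcgr4) activate the cell through the FcR common γ chain (Fcer1g), a small adaptor with an immunoreceptor tyrosine-based activation motif that recruits the kinase SYK. FcγRIIB (Fcgr2b) carries an inhibitory motif in its own tail, recruits the phosphatase SHIP-1 and opposes them. Macrophages carry all 4 receptors, B cells only FcγRIIB, mouse NK cells FcγRIII, and the γ chain also serves receptors that do not bind IgG.

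The data were 2 single-cell RNA libraries of cells from the microenvironment of MC38 tumours in mice, 21 days after engraftment; MC38 is a line of mouse colorectal cancer cells. The TMEM16F KO library came from tumours of cells lacking TMEM16F, a phospholipid scramblase encoded by Ano6, and the vector control library from tumours of MC38 cells that carried the vector. The knockout was made in the engrafted cells, so in both groups the immune cells described here come from host mice to which the labels give no mutation. The sources used here do not give the strain, age or number of mice behind each library. Each group is 1 library, so no test can be made, and a difference between the libraries cannot be told apart from one between tumours or cell preparations. All intervals, in brackets, are 95% intervals that cover counting error only.

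After filtering, 5688 TMEM16F KO cells (45859868 unique molecular identifiers, UMIs, median 5995 per cell) and 5028 vector control cells (43012160 UMIs, median 6019.5) were kept, and 8 of the kept cell barcodes occurred in both libraries. The design text of the series states 10782 cells, against 11246 barcodes in the matrices and 10716 kept here. Ano6 was read at 33.3 CPM (UMIs of a gene scaled to a total of 1000000) in TMEM16F KO cells and 28.7 CPM in vector control cells. No class of tumour cells was defined in which to check the labels, and a 3′ read can persist after a deletion, so this level checks nothing. Cells were sorted into classes by UMIs of marker genes, none of them a member. Although the material was labelled as tumour-infiltrating lymphocytes, macrophage-like cells were the largest class, with 2587 TMEM16F KO and 2621 vector control cells. They were followed by CD8 T-like cells (983 and 718), other T-like cells (391 and 241), monocyte-like cells (309 and 299), cells with macrophage and monocyte markers together, called mixed phagocyte-like (273 and 214), Treg-like (206 and 148), NK-like (163 and 90) and DC-like cells (63 and 52). Cluster 9, a Leiden cluster of low depth, took in 69 TMEM16F KO and 440 vector control macrophage-like cells, and results in this class are also given without it where they change.

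Of the 5 genes, 4 lie within 275.749 kb of chromosome 1 (mm10). In order of position these are Fcgr2b (ENSMUSG00000026656, 170958617 to 170976547, minus strand), Fcgr4 (ENSMUSG00000059089, 171018920 to 171029761, plus strand), Fcgr3 (ENSMUSG00000059498, 171051174 to 171064935, minus strand) and Fcer1g (ENSMUSG00000058715, 171229572 to 171234365, minus strand). Fcgr1 (ENSMUSG00000015947) lies on chromosome 3, from 96282909 to 96293969 on the minus strand. The 250 bases before the listed start are printed for Fcgr1 and Fcgr4, whose promoters hold letters of the interferon-responsive elements searched for, and for Fcer1g, which held no match. The sequences are from RefSeq (GRCm38.p6), 5′ to 3′ on the strand of the gene, and cover chr3:96293970-96294219 (minus strand), chr1:171018676-171018925 (plus strand) and chr1:171234350-171234599 (minus strand). Capitals mark the matches.
Fcgr1: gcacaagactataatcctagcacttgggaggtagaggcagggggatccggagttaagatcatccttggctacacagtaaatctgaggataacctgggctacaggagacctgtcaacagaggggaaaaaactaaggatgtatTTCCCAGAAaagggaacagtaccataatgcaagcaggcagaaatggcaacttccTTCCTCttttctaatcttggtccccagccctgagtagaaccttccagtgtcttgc
Fcgr4: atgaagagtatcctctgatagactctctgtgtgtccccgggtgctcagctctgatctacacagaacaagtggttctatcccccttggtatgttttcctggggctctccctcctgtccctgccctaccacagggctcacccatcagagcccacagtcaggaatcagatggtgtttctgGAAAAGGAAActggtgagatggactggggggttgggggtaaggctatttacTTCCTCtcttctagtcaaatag
Fcer1g: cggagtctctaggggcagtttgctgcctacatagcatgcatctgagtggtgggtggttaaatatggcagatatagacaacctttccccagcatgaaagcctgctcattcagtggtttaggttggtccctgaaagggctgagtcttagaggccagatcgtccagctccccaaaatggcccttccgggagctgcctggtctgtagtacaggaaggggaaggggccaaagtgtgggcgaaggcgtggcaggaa

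The letters searched for, on both strands, were GAGGAA (the core bound by PU.1, the myeloid factor encoded by Spi1), TTCNNNGAA (the interferon-gamma-activated site, which is its own reverse complement) and GAAA followed by any 2 bases and a further GAAA (the interferon-stimulated response element bound by interferon regulatory factors). Fcgr1 held the interferon-gamma-activated site as TTCCCAGAA, 109 to 101 bases before the start, and Fcgr4 the response element as GAAAAGGAAA, 73 to 64 bases before it. All 3 activating receptors held the PU.1 core on the strand opposite the gene, seen as TTCCTC on the strand of the gene. It lay at 55 to 50 bases in Fcgr1, 22 to 17 in Fcgr4, and 6 to 1 or 15 to 10 from the 2 starts listed for Fcgr3. None of the 3 patterns was found in the windows of Fcgr2b and Fcer1g. The windows of Fcgr3 (171059395 to 171059653 over both starts) and Fcgr2b (170976072 to 170976321) lie inside the gene spans given above. They precede the listed starts and not the outer ends of those spans. Over 27025 mouse promoter windows of the same 250 bases, 23.1% held GAGGAA, 7.18% TTCNNNGAA and 3.04% the response element, so the PU.1 core is common at this length. No match overlapped another. A match describes letters and is not a measured binding site.

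Because Fcgr2b and Fcgr3 are related in sequence, reads could be shared between them. Of the 50-base windows in the last 500 bases of the annotated transcripts, 2 of 131 in Fcgr2b were also found in Fcgr3, and none of those of Fcgr1 (38), Fcgr3 (76), Fcgr4 (19) or Fcer1g (51) were found in the transcripts of another gene. Gm38204 overlaps Fcgr2b on the opposite strand and had 68 TMEM16F KO and 39 vector control UMIs, against 28449 and 23399 UMIs of Fcgr2b. The sources used here do not say whether the counting used strand.

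Over all kept cells every member stood higher in the TMEM16F KO library, and Fcgr4 by the widest margin. The share of all genes that stood higher was taken by class only. Fcgr4 stood at 222 CPM (217 to 226; 10168 UMIs) in TMEM16F KO cells and at 136 CPM (132 to 139; 5841 UMIs) in vector control cells, a ratio of 1.63 (1.58 to 1.69). Fcgr1 (198 against 173 CPM), Fcgr3 (496 against 403 CPM), Fcgr2b (620 against 544 CPM) and Fcer1g (3984 against 3383 CPM) had ratios of 1.14, 1.23, 1.14 and 1.18, with intervals that reach neither 1 nor the interval of Fcgr4. In both libraries the 3 phagocyte classes (macrophage-like, mixed phagocyte-like and monocyte-like) held between 92.7% and 95.2% of the UMIs of each of the 4 receptors. They held 87.4% of the Fcer1g UMIs in the TMEM16F KO library and 90.6% in the vector control library, so a larger share of the γ chain than of any receptor lay outside them.

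**Figure D1:**
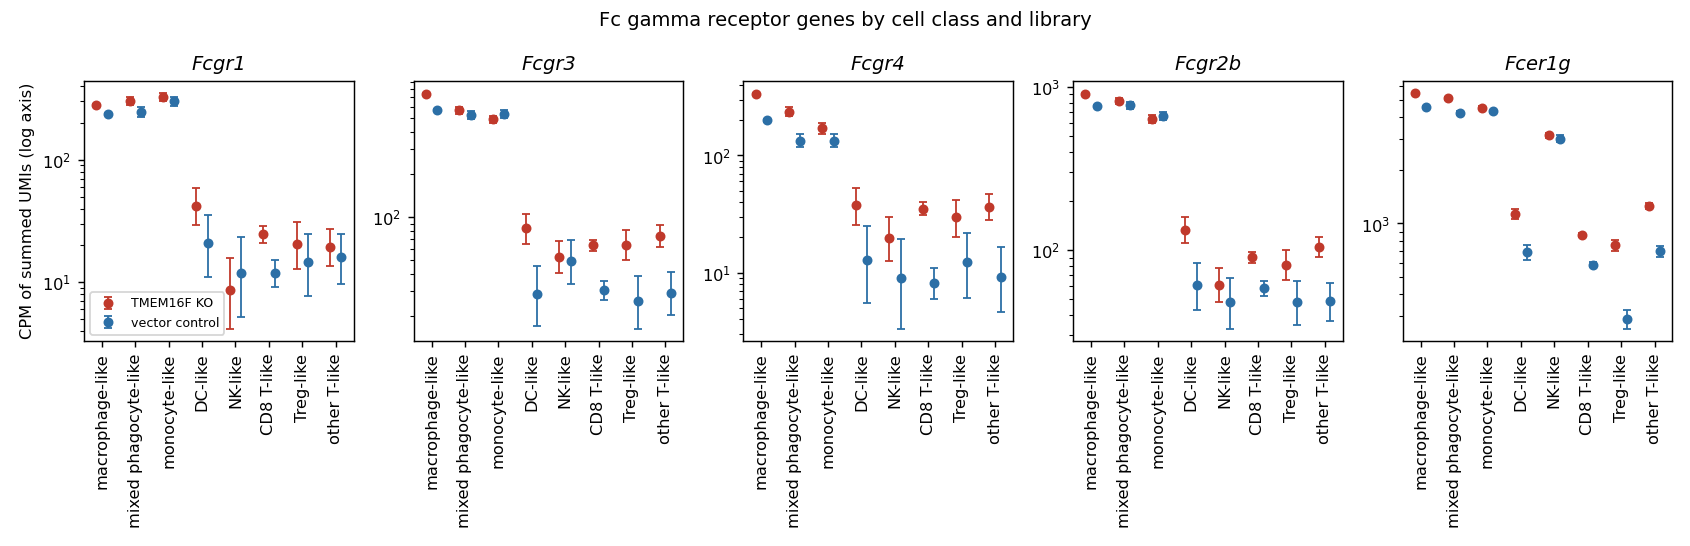
CPM of the summed UMIs of each member (log axis) in the 8 classes that had 50 or more cells per library, for TMEM16F KO (left, red) and vector control (right, blue), with exact Poisson intervals. Phagocyte classes stand far above the lymphoid classes for the 4 receptors, while Fcer1g in NK-like cells stands at 3157 CPM in TMEM16F KO and 3010 CPM in vector control cells.

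Macrophage-like cells had the highest Fcgr4 and Fcer1g of the 8 classes in both libraries. All 5 members were higher in the TMEM16F KO library, as were 54.1% of the 13561 genes with at least 20 UMIs in the class. Of the members 1, Fcgr4, was past 1.5-fold, where 9.3% of those genes were past 1.5-fold higher and 6.14% past 1.5-fold lower. The median log2 ratio was 0.25 over the 5 members and 0.03 over all genes tested.

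Fcgr4, whose product binds mouse IgG2a and IgG2b, stood at 335 CPM (328 to 342; 8600 UMIs) in TMEM16F KO macrophage-like cells and at 199 CPM (194 to 205; 5026 UMIs) in vector control ones. The ratio was 1.68 (1.63 to 1.74). Fcgr3 stood at 741 CPM (730.3 to 751) in TMEM16F KO and 573 CPM (564 to 582) in vector control cells, a ratio of 1.29 (1.27 to 1.32). Fcgr1, the high-affinity receptor, stood at 279 CPM (273 to 286) in TMEM16F KO and 237 CPM (231 to 243) in vector control cells, a ratio of 1.18 (1.14 to 1.22). The inhibitory Fcgr2b had almost the same ratio, 1.19 (1.17 to 1.21), from 908 CPM in TMEM16F KO and 764.5 CPM in vector control cells. Fcer1g, the shared adaptor, stood at 5441 CPM (5412 to 5470) in TMEM16F KO and 4571 CPM (4545 to 4597) in vector control cells, a ratio of 1.19 (1.18 to 1.2). The groups of intervals therefore put Fcgr4 first and Fcgr3 next, with the other 3 members level with each other.

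Macrophage markers were also higher in this class: the 11 markers, all seen in both libraries, summed to 20658 CPM in TMEM16F KO and 18608 CPM in vector control cells. Per macrophage marker UMI, Fcgr4 stood at 0.0162 (0.0159 to 0.0166) in TMEM16F KO and 0.0107 (0.0104 to 0.011) in vector control cells, and Fcgr1 at 0.0135 against 0.0127. On that scale the ratio was 1.52 (1.46 to 1.57) for Fcgr4 and 1.16 for Fcgr3, and between 1.06 and 1.07 for Fcgr1, Fcgr2b and Fcer1g, with intervals above 1 for all 5. The 7 neutrophil markers, of a cell type that also carries FcγRIV, summed to 50.6 CPM in TMEM16F KO and 22.1 CPM in vector control macrophage-like cells with 6 of 7 seen in each, and their part in the result was not tested. Weighting every cell alike gave a lower Fcgr4 ratio of 1.44, and leaving out cluster 9 a ratio of 1.70.

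**Figure D2:**
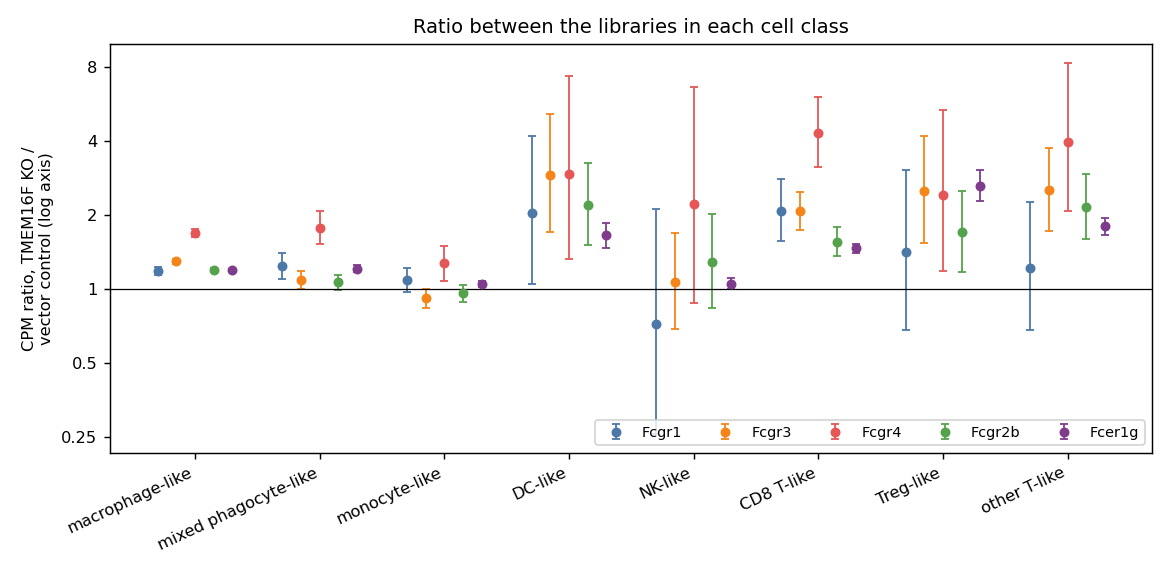
Ratio of CPM in TMEM16F KO over vector control cells (log axis) for the 5 members in 8 classes, with exact 95% intervals for counting error; the line marks a ratio of 1. Fcgr4 is the highest point in macrophage-like (1.68), mixed phagocyte-like (1.77) and monocyte-like cells (1.27), and intervals widen in the classes with few UMIs.

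In monocyte-like cells the members stood on both sides of a ratio of 1. Fcgr4 stood at 170 CPM (153 to 189; 355 UMIs) in TMEM16F KO and 134 CPM (119 to 151; 263 UMIs) in vector control cells, a ratio of 1.27 (1.08 to 1.49). Fcgr3 stood at 489 CPM (460 to 520; 1021 UMIs) in TMEM16F KO and 535 CPM (503 to 568; 1048 UMIs) in vector control cells, a ratio of 0.915 (0.839 to 0.998), which is on the other side of 1 from the macrophage-like value. Fcer1g (4499 against 4303 CPM) had a ratio of 1.05 (1.01 to 1.08), and the intervals of Fcgr1 (326 against 300 CPM, 1.09) and Fcgr2b (638 against 667 CPM, 0.957) held 1. Per macrophage marker UMI the Fcer1g ratio was 0.976 (0.948 to 1.005), so its direction flips with the scale. Of monocyte-like cells thinned to 2000 UMIs, 58.9% in TMEM16F KO and 59.1% in vector control had an Fcgr3 UMI, with means of 1.044 and 1.004. Thinned to 1000 UMIs, the means were 0.480 and 0.512. Before thinning, the cells with at least 2000 UMIs had mean Fcgr3 levels of 4.905 per 10000 UMIs in TMEM16F KO and 5.285 in vector control. Thinning leaves out most UMIs of these cells, so the thinned values cannot show whether the Fcgr3 difference depends on depth. None of the 5 was past 1.5-fold, against 12.1% of 8649 genes higher and 4.84% lower. Neutrophil markers summed to 629.7 CPM in TMEM16F KO and 36.2 CPM in vector control monocyte-like cells, with 5 of 7 seen in each, and their part in these values was not tested.

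In mixed phagocyte-like cells, as in macrophage-like cells, Fcgr4 had the highest ratio of the 5. It stood at 237 CPM (216 to 258; 498 UMIs) in TMEM16F KO and 134 CPM (118 to 151; 254 UMIs) in vector control cells, a ratio of 1.77 (1.52 to 2.07). Of the members Fcgr4 alone was past 1.5-fold, where 9.87% of 8735 genes were past it higher and 7.49% lower. Fcgr1 (303 against 245 CPM) and Fcer1g (5083 against 4207 CPM) had ratios of 1.24 and 1.21 with intervals above 1, while those of Fcgr3 (1.08, 0.996 to 1.18) and Fcgr2b (1.06, 0.991 to 1.14) held 1.

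The order of the phagocyte classes differed by gene. Fcgr1 was highest in monocyte-like cells in both libraries, at 326 CPM in TMEM16F KO and 300 CPM in vector control cells, and its intervals in neighbouring classes met in the TMEM16F KO library. In the TMEM16F KO library Fcgr3, Fcgr4, Fcgr2b and Fcer1g were highest in macrophage-like, next in mixed phagocyte-like and then in monocyte-like cells, with no neighbouring intervals meeting. In the vector control library the 3 classes were closer: Fcgr3 intervals met from macrophage-like (573 CPM) through monocyte-like (535 CPM) to mixed phagocyte-like cells (522 CPM), and Fcgr2b did not differ beyond its intervals between mixed phagocyte-like (772.5 CPM) and macrophage-like cells (764.5 CPM).

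The balance of activating to inhibitory transcripts was compared as UMIs of Fcgr1, Fcgr3 and Fcgr4 per UMI of Fcgr2b, a ratio of 3′ counts that can be set against the same ratio in another class or library but is not a ratio of proteins. In macrophage-like cells it was 1.49 (1.47 to 1.52) in the TMEM16F KO library and 1.32 (1.29 to 1.34) in the vector control library, 1.13 times as high (1.1 to 1.16). Within it, Fcgr4 per Fcgr2b was 0.369 against 0.260, and Fcgr3 per Fcgr2b 0.816 against 0.749, whereas Fcgr1 per Fcgr2b was 0.307 (0.299 to 0.316) in TMEM16F KO and 0.309 (0.301 to 0.319) in vector control cells. The balance was 1.35 against 1.17 in mixed phagocyte-like cells. In monocyte-like cells it was 1.54 (1.44 to 1.66) in TMEM16F KO and 1.45 (1.35 to 1.56) in vector control cells, with intervals that overlap. The γ chain stood level relative to Fcgr2b in macrophage-like cells, at 5.99 (5.91 to 6.07) UMIs of Fcer1g per UMI of Fcgr2b in TMEM16F KO and 5.98 (5.89 to 6.07) in vector control cells. Per activating receptor UMI there were fewer Fcer1g UMIs in TMEM16F KO (4.01) than in vector control cells (4.53). With cells weighted alike the activating balance was 1.06 times as high in TMEM16F KO macrophage-like cells.

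Single cells were compared after each was thinned to 2000 UMIs, which left out 342 TMEM16F KO and 581 vector control macrophage-like cells. An Fcgr4 UMI was then seen in 41.6% (39.6 to 43.7) of 2245 TMEM16F KO cells and in 30.4% (28.4 to 32.5) of 2040 vector control cells (69.8% and 58.0% unthinned). CD8 T-like cells are not known to make FcγRIV and give the background: thinned, 5.21% of them in TMEM16F KO and 1.63% in vector control had an Fcgr4 UMI. Their unthinned median depths were 5703 and 6690 UMIs per cell, and those of macrophage-like cells 8433 and 7768. For the other 3 receptors the thinned shares were closer between the libraries, at 68.2% and 62.4% for Fcgr3, 38.2% and 33.7% for Fcgr1, and 77.2% and 70.6% for Fcgr2b in TMEM16F KO and vector control macrophage-like cells. The share with Fcer1g, at 98.1% and 98.6%, was too near its limit to show a difference, and its thinned mean was 10.5 UMIs per cell in TMEM16F KO and 9.07 in vector control cells. Over cells with at least 2000 UMIs, the median Fcgr4 level was 2.4 per 10000 UMIs in TMEM16F KO and 1.32 in vector control macrophage-like cells, and the 90th percentile 7.72 and 4.99, so the upper and middle parts of the distribution both stood higher.

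All 4 receptor transcripts were seen together in 10.6% (9.36 to 12) of thinned macrophage-like cells in TMEM16F KO and 6.96% (5.89 to 8.15) in vector control. None was seen in 5.26% (4.37 to 6.26) of TMEM16F KO and 7.99% (6.85 to 9.25) of vector control cells. Cells with 3 receptors made up 32.8% in TMEM16F KO and 23.8% in vector control, and cells with 1 receptor 18.3% and 24.5%. Fcgr4 and Fcgr2b, an activating and the inhibitory receptor, were seen in the same cell in 33.4% of TMEM16F KO cells, against 32.1% if the transcripts were distributed independently, and in 22.6% of vector control cells, against 21.5%.

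**Figure D3:**
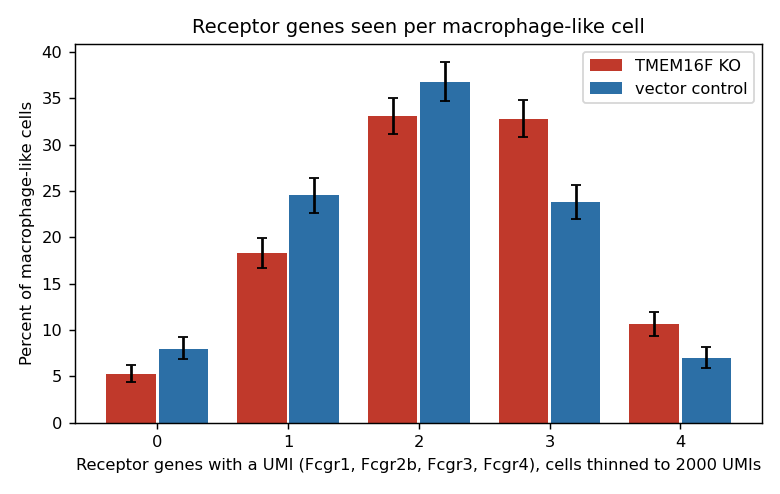
Percent of macrophage-like cells, thinned to 2000 UMIs each, in which 0 to 4 of the receptor genes Fcgr1, Fcgr2b, Fcgr3 and Fcgr4 had a UMI, for TMEM16F KO (2245 cells, left bars) and vector control (2040 cells, right bars) with exact binomial intervals. TMEM16F KO bars are higher at 3 and 4 receptors and lower at 0, 1 and 2.

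The difference in Fcgr4 was present across phagocyte clusters drawn without the members among the variable genes. In the 9 phagocyte clusters that had 50 or more cells per library, Fcgr4 ranged from 106 to 441 CPM in TMEM16F KO and from 75.7 to 266 CPM in vector control cells. Its ratio ran from 1.31 to 1.97 with a median of 1.66, was above 1 in 9 of 9 clusters, and had an interval above 1 in 8. Cluster 1 had the highest level in both libraries (441 against 266 CPM), and cluster 8 the highest ratio (312 against 158 CPM, 1.97, 1.76 to 2.2). The ratio of Fcer1g was above 1, with its interval, in 9 of 9 (1.15 to 1.30), that of Fcgr3 in 8 and that of Fcgr1 in 7. Fcgr2b was higher with its interval in 5 clusters and lower in 1, with ratios from 0.853 to 1.36. The lower was cluster 12, where the Fcgr4 interval held 1 (0.965 to 2.05). Cluster 12 had the lowest levels of all 5 members in both libraries, with Fcer1g at 1467 CPM in TMEM16F KO and 1217 CPM in vector control cells. The highest Fcer1g levels among the 9 clusters were 6392 and 5153 CPM. The clusters are parts of the same 2 libraries and are not replicates.

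**Figure D4:**
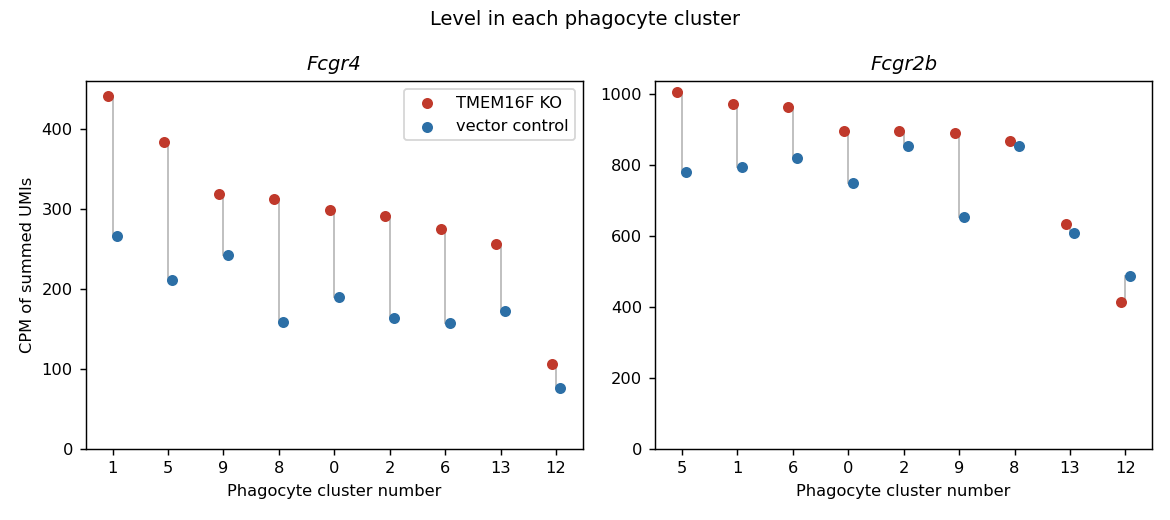
CPM of Fcgr4 and of Fcgr2b in the 9 phagocyte clusters that had 50 or more cells per library, ordered by the TMEM16F KO level; grey lines join TMEM16F KO (red) and vector control (blue). The TMEM16F KO point is above in 9 of 9 clusters for Fcgr4 and in 8 of 9 for Fcgr2b.

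Phagocytes were also split by genes of known states. Of the phagocytes thinned to 2000 UMIs, 39.9% of 2785 TMEM16F KO and 35.3% of 2507 vector control cells had a UMI of Mmp12 or Mmp13, metalloproteinases of tissue-remodelling macrophages. In these cells Fcgr4 stood at 309 CPM in TMEM16F KO and 156 CPM in vector control cells, a ratio of 1.98 (1.87 to 2.1), and in the cells without such a UMI at 326 and 209 CPM, a ratio of 1.56 (1.5 to 1.63). The intervals of the 2 ratios do not meet. In vector control phagocytes Fcgr4 was 0.749 times (0.706 to 0.794) as high with the metalloproteinases as without, against 0.946 times (0.908 to 0.986) in TMEM16F KO phagocytes. Splits by Mrc1 (the mannose receptor, also a class marker), Il1b (a pro-inflammatory cytokine) and Ccr2 or Ly6c2 (genes of monocytes) gave Fcgr4 ratios between 1.66 and 1.71 on both sides.

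Cycling cells, with a UMI of at least 1 of 6 cell cycle markers, made up 12.96% (11.7 to 14.3) of TMEM16F KO and 21.2% (19.6 to 22.9) of vector control phagocytes after thinning. They had lower levels of every member than the other phagocytes of their library, with intervals below a ratio of 1. Fcgr3 stood at 566 against 744 CPM in TMEM16F KO (0.761) and 479 against 599 CPM in vector control (0.799). The Fcgr2b ratios were 0.840 in TMEM16F KO and 0.806 in vector control. Those of Fcgr4, Fcgr1 and Fcer1g lay between 0.854 and 0.933. Cycling and other cells had Fcgr4 ratios between the libraries of 1.67 and 1.65, so the difference in that gene was about as large within each.

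Outside the phagocytes, NK-like cells separated the γ chain from the receptors. Fcer1g stood at 3157 CPM (3055 to 3261; 3652 UMIs) in TMEM16F KO and 3010 CPM (2880 to 3145; 2009 UMIs) in vector control NK-like cells, a ratio of 1.05 (0.993 to 1.11), and was seen in 99.3% and 100% of thinned cells. Fcgr3, the IgG receptor that mouse NK cells are known to carry, stood at 52.7 CPM (40.3 to 67.7; 61 UMIs) in TMEM16F KO and 49.5 CPM (34.0 to 69.4; 33 UMIs) in vector control cells. CD8 T-like cells, which carry no FcγRIII by background knowledge, had 63.4 CPM (57.7 to 69.6) in TMEM16F KO and 30.7 CPM (26.3 to 35.6) in vector control cells. The intervals of NK-like and CD8 T-like cells met in both libraries, and the NK-like level was the lower in TMEM16F KO and the higher in vector control cells. The NK-like Fcgr3 ratio of 1.07 (0.687 to 1.68) was 0.63 with cells weighted alike and 0.551 per macrophage marker UMI, a scale that gave 0.542 for Fcer1g. Thinned, 7.89% of TMEM16F KO and 15.3% (8.4 to 24.7) of vector control NK-like cells had an Fcgr3 UMI, against 7.98% and 3.27% (2.06 to 4.91) of CD8 T-like cells. The shares thus stood apart in the vector control library only. Macrophage markers stood at 954 CPM in NK-like and 1375 CPM in CD8 T-like cells of TMEM16F KO. In vector control they stood at 493 and 684 CPM, and the shares were not adjusted for this difference. In NK-like cells 1 of the 4 members with at least 20 UMIs, Fcgr4 with 23 against 6 UMIs, was past 1.5-fold (2.21, 0.875 to 6.64), where 14.8% of 7099 genes were past it higher and 7.96% lower. That Fcgr4 ratio ran from 1.14 per macrophage marker UMI to 6.22 with the stricter lead, and Fcgr1 had 10 TMEM16F KO and 8 vector control UMIs.

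Fcer1g per Fcgr2b UMI was 51.4 (40.7 to 66) in TMEM16F KO and 62.8 (44.3 to 92) in vector control NK-like cells, against 5.99 and 5.98 in macrophage-like cells. In CD8 T-like cells it was 9.45 (8.71 to 10.3) in TMEM16F KO and 10.1 (8.97 to 11.3) in vector control cells. Both lie above the macrophage-like value. Fcer1g was also seen in 7 of 7 TMEM16F KO and 3 of 3 vector control mast-like cells, with 90 and 24 UMIs; the γ chain is a known part of the IgE receptor of mast cells. By contrast, all 4 receptor genes had 0 UMIs there. The intervals of these counts of 0 reach 251.5 CPM in TMEM16F KO and 534.3 CPM in vector control mast-like cells. A level of 3 counts of the class total would be 204.5 and 434.5 CPM, so levels below these could go unseen at this depth.

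**Figure D5:**
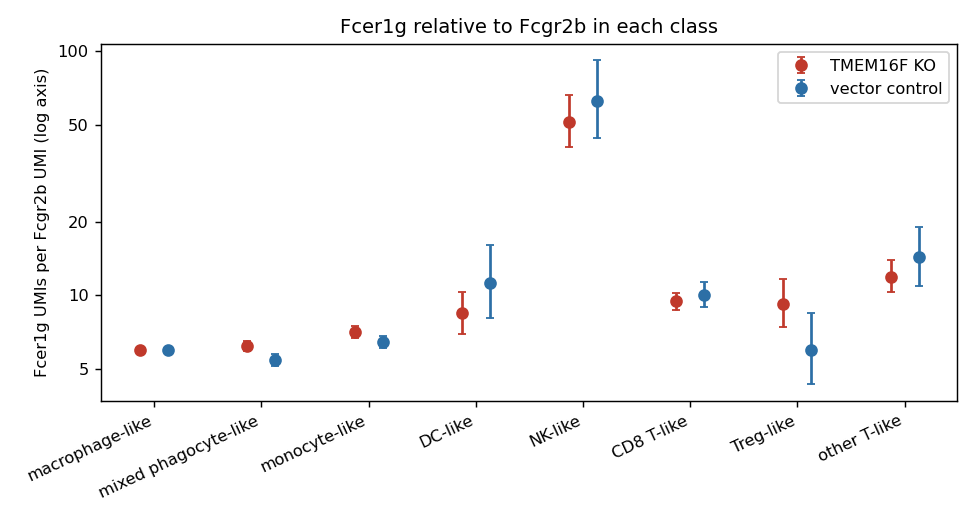
UMIs of Fcer1g per UMI of Fcgr2b (log axis) in 8 classes for TMEM16F KO (left) and vector control (right), with exact 95% intervals for counting error. NK-like cells stand above every other class shown, at 51.4 in TMEM16F KO and 62.8 in vector control cells.

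In T cells the receptor transcripts were few, and higher in the TMEM16F KO library together with macrophage markers. In CD8 T-like cells 4 of 5 members were past 1.5-fold higher, against 8.32% of 11404 genes higher and 8.19% lower. Fcgr4 stood at 35.0 CPM (30.8 to 39.7; 246 UMIs) in TMEM16F KO and 8.15 CPM (5.97 to 10.9; 46 UMIs) in vector control cells, a ratio of 4.3 (3.13 to 6.03). Fcgr1, Fcgr3 and Fcgr2b had ratios of 2.08, 2.07 and 1.55, and Fcer1g of 1.46 (857 against 586 CPM). The 11 macrophage markers, all seen in both libraries, summed to 1375 CPM in TMEM16F KO and 684 CPM in vector control CD8 T-like cells. Per macrophage marker UMI the ratio was 2.14 (1.56 to 3) for Fcgr4, 1.03 for Fcgr1 and Fcgr3, and below 1 for Fcgr2b (0.773) and Fcer1g (0.727), so the direction of the last 2 flips with the scale. With classes from clusters the Fcgr4 ratio was 2.73, and the Fcgr2b ratio was under 1.5 with doublets kept (1.47). Treg-like cells (Fcgr4 29.7 against 12.3 CPM) and other T-like cells (36.6 against 9.24 CPM) had Fcgr4 ratios of 2.42 and 3.96, with macrophage markers at 1391 against 766 CPM and 1353 against 830 CPM. Per macrophage marker UMI those Fcgr4 ratios were 1.33 and 2.43.

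DC-like cells, few in each library, had all 5 members past 1.5-fold higher, where 11.8% of 6070 genes were past it higher and 9.92% lower. Fcgr2b stood at 134 CPM (110.3 to 161; 114 UMIs) in TMEM16F KO and 60.9 CPM (43.1 to 83.6; 38 UMIs) in vector control cells, a ratio of 2.2 (1.51 to 3.26). Fcer1g stood at 1131 against 686 CPM, Fcgr3 at 83.3 against 28.8, Fcgr1 at 42.2 against 20.8 and Fcgr4 at 37.5 against 12.8 CPM. Macrophage markers summed to 858 CPM in TMEM16F KO and 629.5 CPM in vector control DC-like cells, 11 of 11 seen in each. Per macrophage marker UMI the ratios were 2.15 for Fcgr4, 2.12 for Fcgr3, 1.61 for Fcgr2b, 1.49 for Fcgr1 and 1.21 for Fcer1g, so the last 2 were under 1.5-fold on that scale. With the stricter lead the Fcer1g ratio was 1.37 and that of Fcgr1 8.995.

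Smaller classes are given as levels. Neutrophil-like cells (37 and 18) had Fcgr4 at 243 CPM (154 to 365; 23 UMIs) in TMEM16F KO and 243 CPM (142 to 390; 17 UMIs) in vector control cells, with intervals that overlap, and Fcgr3 at 444 and 329 CPM. Plasmacytoid DC-like cells (18 and 15) had Fcer1g at 2427 CPM in TMEM16F KO and 1806 CPM in vector control cells, with 11 and 2 UMIs of Fcgr3. B-like cells (9 and 14), in which FcγRIIB is the known IgG receptor, had 4 TMEM16F KO and 30 vector control UMIs of Fcgr2b, beside 31 and 231 UMIs of macrophage markers. Stroma-like cells (49 and 73) had Fcgr4 at 36.6 CPM (24 UMIs) in TMEM16F KO and 10.55 CPM (23 UMIs) in vector control cells. Fcgr2b stood there at 82.4 CPM (54 UMIs) and 36.7 CPM (80 UMIs), beside macrophage markers at 1876 and 779 CPM. The 7 TMEM16F KO endothelial-like cells had at most 6 UMIs of any receptor, and the 2 TMEM16F KO and 1 vector control plasma-like cells at most 3. In unassigned cells (584 and 521) Fcgr4 stood at 86.1 against 70.4 CPM.

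The genes around the receptors were followed in lists, with medians as log2 ratios of TMEM16F KO over vector control. Among the other receptors that pair with the γ chain, 7 of 10 had enough UMIs in macrophage-like cells, and all 7 were higher in the TMEM16F KO library, 3 of them past 1.5-fold. Of all genes tested in the class, 54.1% were higher and 9.3% past 1.5-fold higher. The median log2 ratio was 0.58, against 0.03 over all genes tested. Clec4d, which encodes the C-type lectin MCL, stood at 364 CPM (9352 UMIs) in TMEM16F KO and 173 CPM (4358 UMIs) in vector control cells, a ratio of 2.11 (2.04 to 2.19). Clec4n, the gene of Dectin-2, had 1289 CPM in TMEM16F KO and 779 CPM in vector control cells, a ratio of 1.66 (1.63 to 1.69). Ncr1, an NK cell receptor and an NK class marker, had 52 and 32 UMIs, a ratio of 1.6 (1.01 to 2.57). In monocyte-like cells 3 of the 5 tested were higher and 2 lower, none past 1.5-fold, with a median log2 ratio of 0.04, against 0.06 over all genes.

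Clec4d and Clec4n were past 1.5-fold in other classes as well. In DC-like cells Clec4d had 32 TMEM16F KO and 5 vector control UMIs, and Clec4n stood at 160 against 84.9 CPM. In NK-like cells, which showed macrophage markers at 954 against 493 CPM, Clec4n stood at 57.9 against 21.0 CPM, Clec4e (Mincle) at 25.1 against 8.99 CPM, and Clec4d had 27 and 1 UMIs, a ratio of 15.6 (2.57 to 638).

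In macrophage-like cells the signalling genes lay closer to level. Of 15 activating signalling genes, 8 stood above and 7 below a ratio of 1 in macrophage-like cells. None was past 1.5-fold, and the median log2 ratio was 0.05. Over all genes tested in the class, 54.1% were higher, 9.3% past 1.5-fold higher and 6.14% past it lower. Of 8 inhibitory signalling genes, 6 stood above and 2 below it, with a median of 0.08. Cblb, a ubiquitin ligase that limits receptor signalling, was past 1.5-fold, with 48.7 CPM in TMEM16F KO and 30.3 CPM in vector control cells (1.6, 1.46 to 1.76). As 1 of 8, it is near the share over all genes. In monocyte-like cells Cblb (51.8 against 33.7 CPM) and Pik3ap1, an adaptor of phosphoinositide 3-kinase (76.7 against 46.4 CPM), were past 1.5-fold higher. Prkcd, a protein kinase C (128 against 205 CPM, ratio 0.626, 0.534 to 0.733), was past it lower. Over all genes tested in that class, 12.1% were past 1.5-fold higher and 4.84% lower. In NK-like cells 9 of 11 activating signalling genes were higher, 5 of them past 1.5-fold, with a median log2 ratio of 0.55. There 56.3% of all genes tested were higher, 14.8% past 1.5-fold higher and 7.96% past it lower, and macrophage markers stood at 954 against 493 CPM. Syk had 41 TMEM16F KO and 12 vector control UMIs there, and Pik3cd stood at 91.6 against 59.9 CPM. Dok1, an inhibitory docking protein, had 14 and 18 UMIs, a ratio of 0.449. In CD8 T-like cells 13 of 14 activating genes were higher, 5 past 1.5-fold. Over all genes tested there, 48.5% were higher and 8.32% past 1.5-fold higher, and macrophage markers stood at 1375 against 684 CPM. In other T-like cells 10 of 12 activating genes were higher, 8 past 1.5-fold. Over all genes tested there, 55.8% were higher and 13.5% past 1.5-fold higher, and macrophage markers stood at 1353 against 830 CPM. The part of macrophage transcripts in these T cell counts was not tested. In DC-like cells Pik3ap1 had 51 and 22 UMIs.

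No transcription factor of the 7 known to act on these promoters was past 1.5-fold in macrophage-like cells. Of the 7, 6 were higher, and the median log2 ratio was 0.22. Over all genes tested in that class, 54.1% were higher, 9.3% past 1.5-fold higher and 6.14% past it lower. Beside these shares, counts of 0 in lists this short say little about the lists. In DC-like cells Cebpb stood at 289 CPM in TMEM16F KO and 160 CPM in vector control cells, a ratio of 1.8 (1.42 to 2.3). The 3 adaptors other than Fcer1g had a median log2 ratio of 0.23 in macrophage-like cells, with 0 of 3 past 1.5-fold, and the 6 genes of the NADPH oxidase one of 0.08, with 0 of 6 past it. In DC-like cells Cybb, the catalytic subunit of that oxidase, had 68 TMEM16F KO and 14 vector control UMIs, a ratio of 3.56 (1.98 to 6.85). Of the other Fc receptors 3 were tested in macrophage-like cells, 1 of them higher and 2 lower, with a median log2 ratio of -0.17. The higher was Fcrla, with 80 TMEM16F KO and 50 vector control UMIs, a ratio of 1.57 (1.09 to 2.29).

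The ligand side differed in kind between the libraries and came from few cells. Ighg1 had 2544 TMEM16F KO and 2 vector control UMIs, and Ighg2b 14 and 6422. The 10 cells with the most UMIs of IgG heavy chains held 97.3% of them in TMEM16F KO and 98.5% in vector control, and 3 TMEM16F KO cells and 1 vector control cell had at least 100. In macrophage-like cells Ighg1 had 46 and 0 UMIs, Ighg2b 0 and 71, Iglc1 109 and 0, and Igha 8 and 19. Iglc2 had 65 and 3, a ratio of 21.3 (6.98 to 106). Of the 8 immunoglobulin genes tested there, 4 were higher and 4 lower, with 3 and 4 past 1.5-fold, where 9.3% and 6.14% of all genes tested were. The 4 were all the list genes past 1.5-fold lower in macrophage-like cells, and that count was 2 without cluster 9, with classes from clusters and with cells weighted alike. In monocyte-like cells Igkc had 23 and 45 UMIs, a ratio of 0.48 (0.277 to 0.81). These are counts of transcripts and say nothing of the antibody bound in the tumours.

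Finally, the pattern of each member over 16 points (8 classes in 2 libraries) was compared with that of 9040 genes with at least 500 UMIs, by Pearson correlation of log2(CPM + 1). The points share 2 libraries and their depth, and the correlations are a description. Fcgr3 and Fcgr2b were each the second most alike of these genes to the other (0.989). By Spearman correlation over the same points neither was among the 5 genes nearest to the other. Fcgr3 was most like Lair1 (0.990), with Sdcbp, 4930430E12Rik and Msr1 also among its nearest 5, and Fcgr2b most like 4930430E12Rik (0.991), with Csf1r, Ctsc and Zeb2os. Fcgr1 was most like Cstb (0.996), with Tgfbi, Nupr1 and Zeb2os also among its nearest 5. Fcgr4 was most like Pla2g7 (0.988), Fth1, Pdpn, Cd300ld and Cybb. Fcer1g was least closely matched, to Rnf130 (0.978), Pilrb1, Vegfa, Tyrobp and Rgl1, the fourth of which, Tyrobp, encodes the other activating adaptor of myeloid and NK cells.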

How the data were processed

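The values the authors deposited are UMI counts, whole numbers for every gene in every barcode without normalization; the file headers name Cell Ranger 8.0.0, so the counts come from it per the file headers. The build mm10 and the tool Seurat 3.1.1 come from the submitters' processing notes; the sources used here give neither the annotation nor the role of Seurat. Libraries were 10x 3′ droplet libraries, per the labels' protocols. From the counts, barcodes were kept that showed 200 genes or more and less than 20% of UMIs from mitochondrial genes. Scrublet's automatic threshold marked 0 barcodes in each library and so did not work, and the highest scores were left out at 0.8% per 1000 barcodes instead (287 TMEM16F KO and 221 vector control barcodes), leaving 5688 of 5993 and 5028 of 5253.

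A cell joined a class when at least 3 of its markers were seen and its marker score, each marker scaled to its 99.5th percentile, led the next class by 1.25-fold. Both limits were chosen with the data in view, the names are rebuilt, so values can differ from the study's for that reason, and cells under the lead stayed unassigned or, between macrophage and monocyte markers, mixed. T cells were Treg-like with Foxp3 or 4 Treg markers, and CD8 T-like with Cd8a or Cd8b1 and no Cd4. UMIs were summed per class and library and given as CPM. CPM have exact Poisson intervals, shares exact Clopper-Pearson intervals and ratios exact conditional binomial intervals, at 95%. The interval of a ratio of ratios was taken on the log scale. A gene entered a comparison with at least 20 UMIs over both libraries and was called past 1.5-fold, in classes of 50 or more cells per library. Cells were also clustered (2000 variable genes without the members, 30 principal components, 15 neighbours, Leiden resolution 1) to give the alternative classes.

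The members and lists were chosen with earlier results of these data known. Named genes are the 5 members in every class, the list genes past 1.5-fold with an interval that leaves out 1 in macrophage-like, monocyte-like, DC-like or NK-like cells (up to 5 per list and class), and the 5 genes most like each member. A gene that this rule names is not reported here. Alternatives kept doublets, left out mitochondrial, ribosomal protein and haemoglobin genes from the total, required 2000 UMIs, weighted cells alike, used clusters or a stricter lead of 2-fold for classes, thinned to 1000 UMIs or not at all, or lowered the gene minimum to 1 UMI. The tools were Python 3.11.15, scanpy 1.11.5, numpy 2.4.6, scipy 1.17.1, leidenalg 0.10.2 and igraph 0.11.9.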

Additional observations from a re-analysis of the deposited data

Results flagged for a closer look

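Fcgr3 had a ratio of TMEM16F KO over vector control of 1.293 in macrophage-like cells and of 0.915 in monocyte-like cells, so the libraries differed in opposite directions in these classes. With 1 library per group this difference between classes was not tested. Intervals for counting error leave out 1 in both classes, narrowly in monocyte-like cells. In monocyte-like cells thinned to 2000 UMIs the means were 1.044 UMIs per TMEM16F KO cell and 1.004 per vector control cell. Thinned to 1000 UMIs they were 0.480 and 0.512. Before thinning, the cells with at least 2000 UMIs had mean levels of 4.905 per 10000 UMIs in TMEM16F KO and 5.285 in vector control. Thinning leaves out most UMIs of these cells, so the thinned means cannot show whether the difference depends on depth.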

How the results depend on the processing

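No paired analysis was possible because each group has 1 library. Over the alternatives, 45 ratios of the 5 members in macrophage-like cells ran from 1.06 to 1.71 and 15 over all kept cells from 1.1 to 1.66, none below 1, with Fcgr4 in macrophage-like cells between 1.44 and 1.71. Of these, 25 and 9 stayed within the counting interval. Without mitochondrial, ribosomal protein and haemoglobin genes the ratios in macrophage-like cells were 1.13 for Fcgr1, 1.24 for Fcgr3, 1.61 for Fcgr4, 1.14 for Fcgr2b and 1.14 for Fcer1g, and over all kept cells 1.1, 1.19, 1.58, 1.1 and 1.14. With cells weighted alike they were 1.09, 1.15, 1.44, 1.13 and 1.09 in macrophage-like cells, the activating balance was 1.06 times as high, and 2 list genes were past 1.5-fold lower. That count was also 2 with classes from clusters and without cluster 9, against 4. With clusters weighted alike, chosen after seeing the data as was leaving out cluster 9, Fcgr3, Fcgr2b and Fcer1g had ratios of 1.24, 1.15 and 1.22. The stricter lead gave 1.21 for Fcgr2b and 1.2 for Fcer1g, and cells with at least 2000 UMIs 1.19 for Fcer1g over all kept cells. The ratio of shares of macrophage-like cells with a UMI was 1.03 for Fcgr3 and 1.21 for Fcgr4 without thinning, against 1.09 and 1.37, and 1.14 for Fcgr2b at 1000 UMIs. The causes were not tested. Per macrophage marker UMI, an alternative chosen after seeing the data, the macrophage-like ratios were 1.06 for Fcgr1, 1.16 for Fcgr3, 1.52 for Fcgr4, 1.07 for Fcgr2b and 1.07 for Fcer1g. In other classes 196 of 235 values stayed within the counting interval and 18 crossed a ratio of 1. In 4 of the 18 the reported interval had left out 1, all on the marker scale: Fcgr2b (0.773) and Fcer1g (0.727) in CD8 T-like, Fcgr2b (0.935) in Treg-like and Fcer1g (0.976) in monocyte-like cells. The other 14 were of ratios whose intervals held 1. By Spearman correlation 0 or 1 of the 5 most alike genes of each member was shared. For the splits by state, keeping doublets and other classes were not run. Depth limits the values of the members in classes with few UMIs, such as NK-like and mast-like cells.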
